A study of Mus musculus with 8 samples.

Results

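The chaperonin containing TCP1 (CCT, also called TRiC) is the ring-shaped folding machine of the eukaryotic cytosol, and its subunits in mouse are encoded by Tcp1 (alpha), Cct2 (beta), Cct3 (gamma), Cct4 (delta), Cct5 (epsilon), Cct6a (zeta), Cct7 (eta) and Cct8 (theta). All 8 symbols had a single row in the deposited table, out of 23535 rows with values, and all 8 were among the 11975 genes abundant enough to be tested. Expression was measured in ventricles of C57BL/6 mice at postnatal day 21, in 4 libraries from Med1 cardiac knockout animals (labelled Med1cKO, genotype Med1KO) and 4 from control animals labelled WT, which carried the loxP-flanked Med1 alleles (Med1fl/fl). Both groups came from the same strain background and age, and which promoter drove Cre in the knockout is not given in the labels or the design text. The libraries were made from polyA RNA with a stranded kit and the values are FPKM, fragment counts scaled to transcript length and library size, so that levels can be set side by side between genes. The labels do not say whether each library came from a separate animal, so p-values measure the spread between these libraries, which may be in part technical. In whole ventricle, fewer cells of a type and less RNA per cell cannot be told apart.

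CCT is built from a pair of stacked rings, and each ring holds every one of the 8 subunits in a fixed order. It encloses newly made polypeptides and closes over them with the energy of ATP. Its best known clients are actin and tubulin, which need it to fold, and it also folds many proteins with WD40 repeats, among them the G protein beta subunits. Prefoldin hands unfolded actin and tubulin to the rings, phosducin-like proteins bind CCT and help it with particular clients, and the tubulin cofactors take over tubulin after release to assemble the alpha-beta dimer. In heart muscle, actin is a main component of the thin filaments and tubulin forms the microtubule network of the myocyte.

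The subunit genes lie on 8 different chromosomes, so that no subunit shares a promoter with another subunit. Several start next to a gene on the opposite strand, as given below. RefSeq windows (GRCm38.p6) were found for 7 of the 8 genes, all except Cct4, and the 250 bases before the start were read for short motifs on both strands. The windows of Cct8, Cct2 and Cct7 are shown because these genes had a large, a middle and a small change in the knockout. Capitals mark Sp1 boxes (GGGCGG, or CCGCCC on the other strand) and CCAAT boxes (CCAAT, or ATTGG on the other strand), and each sequence is written 5′ to 3′ on the strand of its gene. Cct8 is read from chr16:87495870-87496119, minus strand, Cct2 from chr10:117063853-117064102, minus strand, and Cct7 from chr6:85451255-85451504, plus strand. The Cct7 window lies inside Pradc1, a gene on the opposite strand (chr6:85446810-85451970).
Cct8: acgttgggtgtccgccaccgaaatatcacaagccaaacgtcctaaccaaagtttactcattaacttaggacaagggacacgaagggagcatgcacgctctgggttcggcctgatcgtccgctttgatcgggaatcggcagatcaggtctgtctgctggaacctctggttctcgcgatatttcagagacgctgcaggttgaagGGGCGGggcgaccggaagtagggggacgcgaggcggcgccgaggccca
Cct2: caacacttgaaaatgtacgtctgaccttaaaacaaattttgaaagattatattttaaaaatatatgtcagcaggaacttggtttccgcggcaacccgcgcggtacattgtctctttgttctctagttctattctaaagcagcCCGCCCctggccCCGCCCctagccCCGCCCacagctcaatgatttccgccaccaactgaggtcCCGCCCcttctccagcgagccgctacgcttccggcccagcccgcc
Cct7: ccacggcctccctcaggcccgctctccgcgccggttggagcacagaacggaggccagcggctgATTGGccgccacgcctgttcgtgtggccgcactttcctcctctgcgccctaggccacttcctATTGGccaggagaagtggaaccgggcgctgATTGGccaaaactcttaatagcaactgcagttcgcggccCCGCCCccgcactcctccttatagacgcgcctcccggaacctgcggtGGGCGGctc
The Sp1 box was in 7 of 7 windows, against 32.7% of all 32851 RefSeq windows of this length. Cct2 held 4 of them and Cct8 held 1. The CCAAT box was in 4 of 7 windows, against 33.8% of all windows, with 3 copies in Cct7 and 0 in Cct8 and Cct2. An ETS motif (CCGGAAG) was in 2 of 7 windows (6.91% of all), the cAMP response motif TGACG in 1 of 7 (17.8%), and the E-box CACGTG in 0 of 7 (6.02%). A heat shock element of 3 units was in 0 of 7 windows (0.466% of all). These are matches of letters and do not show binding. The background windows were not limited to genes expressed in ventricle, nor matched to the subunits by level. The Sp1 box was present in the window of every subunit that had one, whatever the size of its change.

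Med1, the Mediator subunit targeted by the knockout, was listed at 7.80, 8.37, 7.89 and 9.15 FPKM in the 4 knockout libraries and at 15.5, 16.1, 10.6 and 16.8 FPKM in the 4 WT libraries. The groups did not overlap, and the knockout mean was 56.3% of the WT mean (exact two-sided permutation test, p = 0.0286, the smallest that 70 assignments allow). The values cover the whole gene, so reads from the loxP-flanked exons alone were not seen. Over all genes tested, the deposited FPKM values were shifted: the median log2 change was 0.25, and limma called 44.9% of genes higher and 16.4% lower in the knockout. After each library was rescaled by the median of its ratios to the other libraries, the median was 0.01 and 27.2% of genes were called higher and 26.9% lower. Quantile normalization gave a median of 0.03, with 28.7% called higher and 25.6% lower. A change as deposited is read against the shift of 0.25, and the rescaled change is given beside it. One library stood apart: knockout replicate 4 held far more of the atrial genes Myl7 (726 FPKM; the other knockout libraries were at 2.50 to 61.6), Myl4 (781; 19.1 to 81.7) and Sln (188; 0.429 to 18.6). Without that library all 8 CCT subunits were still called higher as deposited, with a median change of 0.56, and the ratio of the summed CCT level given below stayed at 1.61.

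All 8 CCT subunit mRNAs were called higher in the Med1 knockout ventricles as deposited, but only 6 after rescaling. They did not change by the same amount. In the FPKM as deposited, all 8 were called higher (limma, Benjamini-Hochberg adjusted p below 0.05), against 44.9% of all genes tested, and in all 8 every knockout library lay above every WT library, which held for 41.7% of genes. The median change over the subunits was 0.57 on the log2(FPKM + 1) scale. After rescaling, 6 of 8 were called higher, against 27.2% of all genes (6 of 8 also after quantile normalization, against 28.7% higher and 25.6% lower), and in the same 6 the groups did not overlap, against 25.8%. The rescaled median of the subunits was 0.30. Cct8, Cct3 and Tcp1 rose most, Cct6a, Cct2 and Cct5 by intermediate amounts, and Cct7 and Cct4 passed the test only as deposited.

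Cct8, the theta subunit, had the largest change. Its level was 150.5, 135, 183 and 134 FPKM in the knockout libraries and 70.5, 63.9, 66.7 and 69.7 FPKM in the WT libraries. The knockout values were high in all 4 libraries and spread widely, with replicate 3 at the top, and the lowest of them was well above the highest WT value. The knockout mean of 150.7 ± 23.1 FPKM was 2.23 times the WT mean of 67.7 ± 2.99 FPKM (SD, n = 4 each), a log2 difference of 1.13 ± 0.10 (SE; limma adjusted p = 2.23e-05), or 0.86 after rescaling (limma adjusted p = 0.000118). Cct8 stood at the 93.1 percentile of all genes tested by change.

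Cct3, the gamma subunit, was at 132, 137.5, 156 and 139.6 FPKM in the knockout and at 73.7, 73.0, 73.7 and 76.9 FPKM in WT. The WT libraries were close together and all 4 knockout libraries were far above them. Mean levels of 141 ± 10.2 and 74.3 ± 1.77 FPKM (SD, n = 4 each) gave a log2 difference of 0.91 ± 0.07 (SE; limma adjusted p = 8.76e-06), or 0.64 after rescaling (limma adjusted p = 9.53e-05). Tcp1, the alpha subunit after which the complex is named, was at 153, 134, 152.5 and 138 FPKM in the knockout and at 84.9, 78.1, 76.7 and 80.6 FPKM in WT. Replicates 1 and 3 of the knockout were the highest, and the groups were again far apart. Mean levels were 145 ± 9.81 FPKM in the knockout and 80.1 ± 3.59 FPKM in WT (SD, n = 4 each), with a log2 difference of 0.84 ± 0.07 (SE; limma adjusted p = 1.60e-05), or 0.57 after rescaling (limma adjusted p = 0.000136).

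Cct6a, the zeta subunit, was at 96.6, 92.9, 99.8 and 107.5 FPKM in the knockout and at 64.8, 63.6, 67.9 and 66.6 FPKM in WT. The lowest knockout library was well above the highest WT library, with knockout replicate 4 at the top. The ratio of means was 1.51 and the log2 change 0.58 ± 0.07 (SE; limma adjusted p = 8.45e-05), or 0.31 after rescaling (limma adjusted p = 0.00402). Cct2, the beta subunit, was at 106, 109.7, 118 and 107 FPKM in the knockout and at 78.5, 69.0, 76.2 and 73.9 FPKM in WT. Replicate 3 was the highest knockout library here, as it was for Cct8, Cct3 and Cct4. The ratio was 1.48 and the log2 change 0.56 ± 0.07 (SE; limma adjusted p = 0.000122), or 0.28 after rescaling (limma adjusted p = 0.00776).

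Cct5, the epsilon subunit, was at 122, 130.1, 142 and 149.6 FPKM in the knockout and at 98.5, 93.5, 94.8 and 94.1 FPKM in WT. The WT libraries were tightly grouped, while the knockout libraries covered a wider range without reaching down to them. The ratio was 1.43 and the log2 change 0.50 ± 0.08 (SE; limma adjusted p = 0.000440), or 0.23 after rescaling (limma adjusted p = 0.0337), the largest adjusted p among the 6 calls that held on both scales.

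Cct7, the eta subunit, was at 72.5, 77.5, 83.7 and 86.5 FPKM in the knockout and at 66.1, 52.9, 60.7 and 60.5 FPKM in WT. Knockout replicate 1 and WT replicate 1 were the closest pair across the groups. The ratio was 1.33 and the log2 change 0.41 ± 0.09 (SE; limma adjusted p = 0.00321), and after rescaling the groups overlapped and the change was 0.13 (limma adjusted p = 0.235). Cct4, the delta subunit, was at 83.55, 83.7, 94.75 and 88.7 FPKM in the knockout and at 75.6, 69.9, 72.9 and 68.0 FPKM in WT. This was the smallest difference in the complex. The ratio was 1.22 and the log2 change 0.29 ± 0.07 (SE; limma adjusted p = 0.00628), close to the shift of all genes, and after rescaling it was 0.01 (limma adjusted p = 0.889).

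**Figure D1:**
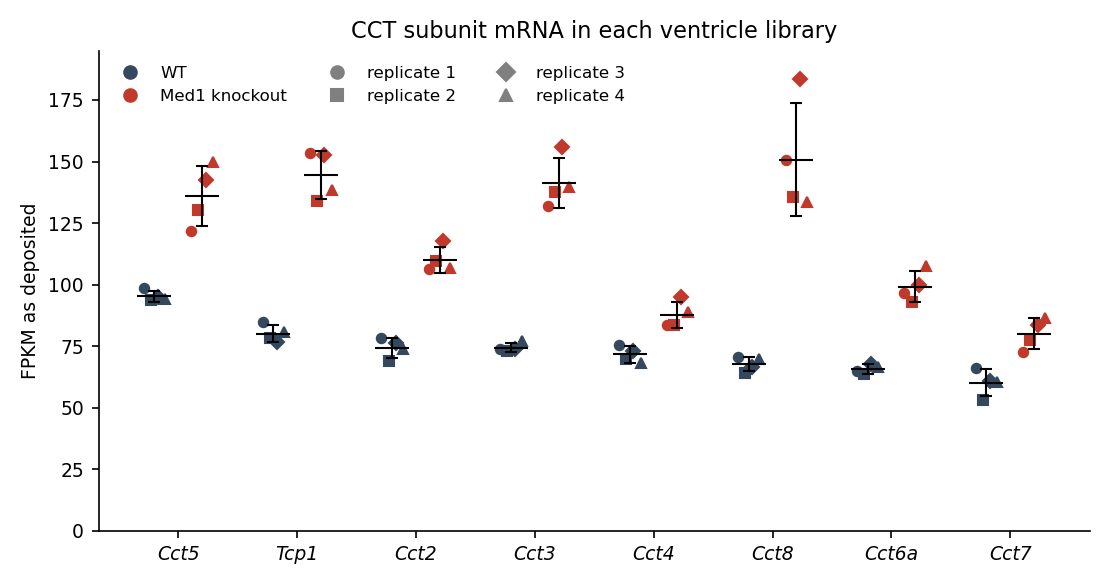
FPKM as deposited of each CCT subunit (vertical axis) in each library, with marker shape for the replicate, and the mean with its SD as bars (n = 4 per group). In each of the 8 subunits all red knockout points lie above all dark WT points, with the widest gap for Cct8 and narrow gaps for Cct4 and Cct7.

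The authors' deposited table compared pooled group values and called 4 of the 8 subunits higher at a false discovery rate below 0.05, against 23.1% of the 12539 genes it tested. In the authors' deposited table the log2 fold change was 0.87 for Cct8, 0.64 for Cct3 and 0.57 for Tcp1, with q values of 0.000211, 0.000211 and 0.000588. Cct6a was the fourth call in the authors' deposited table, at 0.31 with a q of 0.0487. The remaining subunits in the authors' deposited table were Cct2 at 0.28 (q = 0.0706), Cct5 at 0.23 (q = 0.159), Cct7 at 0.13 (q = 0.454) and Cct4 at 0.01 (q = 0.960). Each of these log2 fold changes was lower by 0.28 than the log2 ratio of the means of the deposited libraries, and the median offset over 11414 genes was the same 0.28. Over those genes the median log2 fold change in the authors' deposited table was 0.005, close to the median of 0.01 after rescaling. The order of the subunits by change was the same in the authors' deposited table as in the library values. A nearly equal offset for every subunit leaves that order unchanged, so it is not separate evidence.

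**Figure D2:**
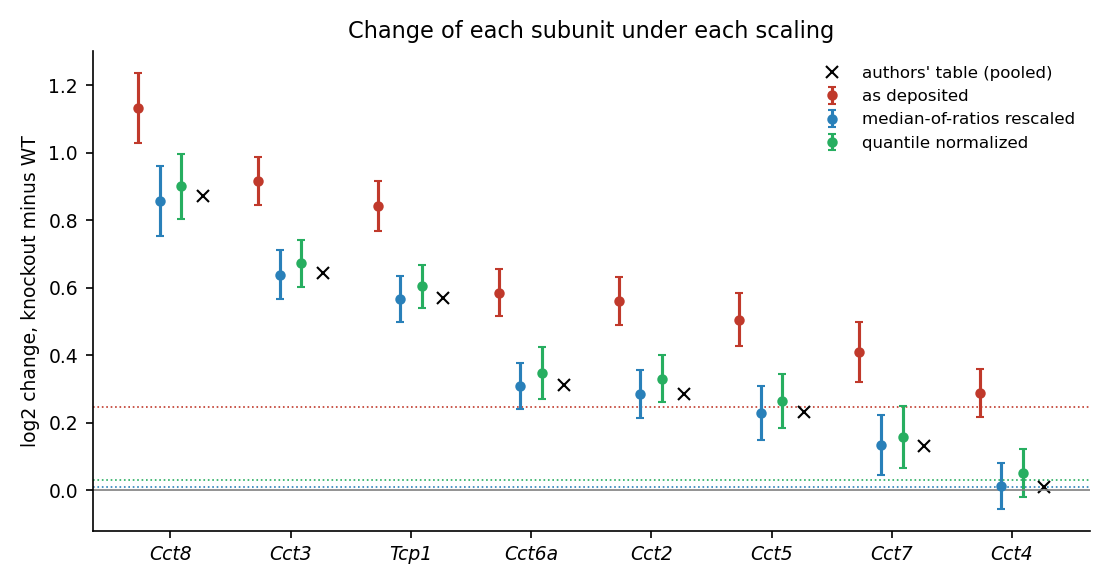
Log2 change of each CCT subunit, knockout minus WT, from the FPKM as deposited, after median-of-ratios rescaling and after quantile normalization (points with SE bars, n = 4 per group), and in the authors' deposited table (crosses). Dotted lines are the medians of all genes tested on each scale in the same colour; the order from Cct8 down to Cct4 is the same on every scale, and Cct4 sits on the rescaled median.

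Because the rings hold the subunits in equal numbers, the level of each mRNA relative to the others was also described. Within a library this share does not depend on how libraries are scaled. In WT ventricles the 8 mRNAs were of similar abundance, between the 91.1 and 94.4 percentiles of all genes tested. Cct5 was the most abundant at 95.3 ± 2.22 FPKM (SD, n = 4), above Tcp1 in 4 of 4 libraries with no overlap of their ranges. Below it, in the order Tcp1, Cct2, Cct3, Cct4, Cct8, Cct6a and Cct7, the ranges of all neighbours overlapped, and the lowest mean was that of Cct7 at 60.1 ± 5.42 FPKM (SD, n = 4).

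In the knockout the order by level was Cct8, Tcp1, Cct3, Cct5, Cct2, Cct6a, Cct4 and Cct7. The ranges of the first 4 overlapped with their neighbours, Cct5 and Cct2 did not overlap, and the lower neighbours overlapped again. Cct8, sixth by mean in WT, was first by mean in the knockout, but it was above Tcp1 in only 2 of 4 knockout libraries. The highest subunit was Tcp1, Cct3, Cct8 and Cct5 in knockout replicates 1, 2, 3 and 4. The coefficient of variation over the 8 subunits was 20.7% to 27.3% across knockout libraries and 13.7% to 16.9% across WT libraries, so that the levels were less even in each knockout library than in any WT library. The ratio of the most to the least abundant subunit was 1.73 to 2.19 in the knockout and 1.52 to 1.77 in WT, and these ranges overlapped.

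Cct8 made up 16.4%, 15.0%, 17.8% and 14.1% of the summed CCT FPKM in the knockout libraries and 11.5%, 11.3%, 11.3% and 11.8% in the WT libraries. Its share was higher in every knockout library, by 4.34 percentage points on average. The shares of Cct3, by 2.25 points, and of Tcp1, by 1.65 points, were also higher in every knockout library than in any WT library. Cct4 made up 9.11%, 9.29%, 9.20% and 9.33% in the knockout and 12.3%, 12.4%, 12.4% and 11.5% in WT. It had the largest loss of share, and its 4 knockout values were almost the same. The shares of Cct5, Cct7 and Cct2 were lower in every knockout library than in any WT library, with mean differences of -1.85, -1.75 and -1.01 points. The share of Cct6a overlapped between the groups, at 10.5% ± 0.669 in the knockout and 11.2% ± 0.402 in WT (SD, n = 4 each). Shares sum to 100% in each library, so a higher share of one subunit lowers the others.

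**Figure D3:**
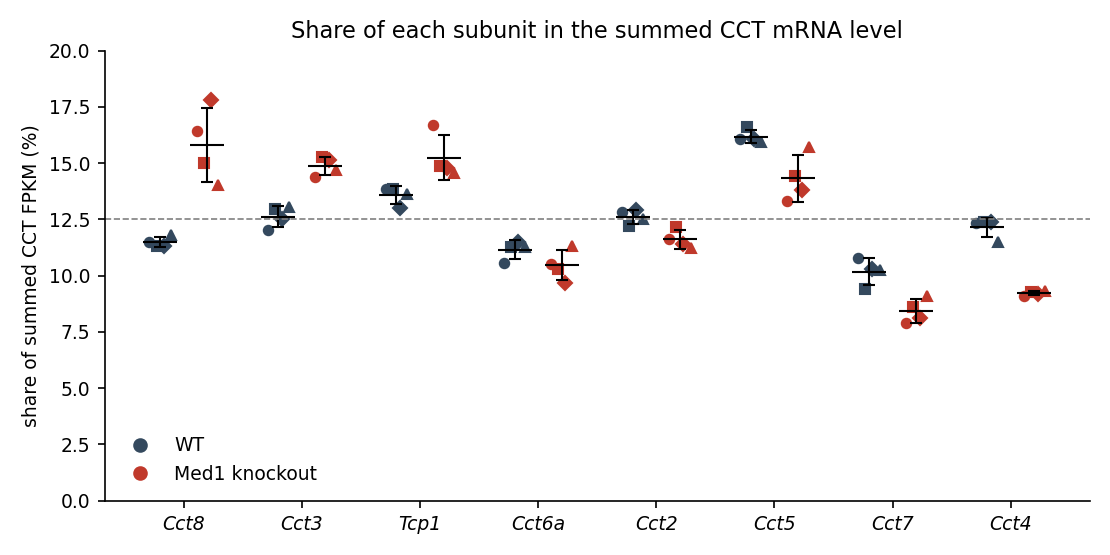
Share of each subunit in the summed CCT FPKM of each library, in percent (vertical axis), with marker shape for the replicate and bars for mean and SD (n = 4 per group). The dashed line is an equal share of 12.5%; in the knockout Cct8, Cct3 and Tcp1 lie above their WT points and Cct4, Cct5, Cct7 and Cct2 below theirs.

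Summed over the 8 subunits, CCT mRNA was at 917, 901, 1030 and 950.5 FPKM in the knockout and at 613, 564, 589.7 and 590.3 FPKM in WT. The groups were far apart, and the ratio of the means, 949.5 ± 57.5 against 589 ± 19.9 FPKM (SD, n = 4 each), was 1.61. After rescaling it was 1.33. Markers of cell types moved between the groups as well. The 6 ventricular cardiomyocyte markers were all called lower on both scales (all genes tested: 16.4% as deposited, 26.9% after rescaling), with a summed level of 12380 to 19060 FPKM in the knockout and 41200 to 44660 FPKM in WT, and the 4 atrial markers were all called higher on both scales (all genes tested: 44.9% and 27.2%), at a summed 5040 to 7931 against 192 to 378 FPKM. Most of that sum was Nppa (5018 to 7829 FPKM in the knockout), and Myl7, Myl4 and Sln were far higher in knockout replicate 4 than in the other libraries. Sln was listed at 0 in all 4 WT libraries. Of 5 fibroblast markers 4 were called higher as deposited and 2 after rescaling, against the same 44.9% and 27.2%, at a summed 590.3 to 965 against 444 to 516 FPKM. The summed smooth muscle markers, at 544 to 632 against 174.5 to 319 FPKM, separated through Cnn1 alone (268 to 404 against 1.11 to 1.48 FPKM), the 1 of 3 that was called, while Acta2 and Myh11 overlapped between the groups. The summed endothelial, macrophage, pericyte, red blood cell and cycling cell markers overlapped between the groups. Of 5 endothelial markers 1 was called higher and 2 lower as deposited, and 0 and 3 after rescaling. Of 3 pericyte markers 1 was called higher and 2 lower as deposited, and 0 and 2 after rescaling. Of 5 macrophage markers 0 were called as deposited and 1 was called lower after rescaling. No red blood cell or cycling cell marker was called. The shares of all genes are those given above. No marker matched in the table was at 0 in all libraries. The part of these shifts in the CCT result was not tested.

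By the pattern over the 8 libraries, 5 genes outside the complex were closest to the mean profile of the subunits, measured as the root mean square difference of centred log2(FPKM + 1). They were Tspan31, which encodes a tetraspanin (0.04), Socs6, a suppressor of cytokine signalling (0.04), Uggt1, the glucosyltransferase that checks glycoprotein folding in the endoplasmic reticulum (0.04), Agps, an enzyme of ether lipid synthesis (0.04), and Tor1aip2, a membrane partner of torsin (0.05). The median over 11967 genes was 0.32. The subunits themselves lay between 0.06 (Cct2) and 0.26 (Cct8) from their own mean profile. The 5 genes were nearer to it than any subunit, but they were chosen for being nearest, so their closeness follows from that choice.

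Prefoldin delivers clients to the rings. Of its 6 subunits, 5 were called higher and 0 lower as deposited, and 1 higher and 1 lower after rescaling (all genes tested: 44.9% higher and 16.4% lower as deposited, 27.2% and 26.9% after rescaling). Pfdn2, a beta-type subunit, was at 79.5, 71.9, 84.7 and 73.5 FPKM in the knockout and at 50.2, 45.8, 45.6 and 45.3 FPKM in WT. It was higher in 4 of 4 knockout libraries, with a log2 change of 0.71 (limma adjusted p = 4.82e-05), or 0.44 after rescaling (limma adjusted p = 0.000691). Pfdn1, Vbp1, Pfdn4 and Pfdn5 had log2 changes of 0.30 to 0.46 as deposited and did not pass the test after rescaling, where they were between 0.03 and 0.20. Pfdn6, listed under the older symbol H2-Ke2, had a log2 change of -0.11 as deposited, which did not pass (limma adjusted p = 0.281), and was called lower after rescaling, at -0.39 (limma adjusted p = 0.00512). The summed prefoldin level per summed CCT level was 0.470 to 0.603 in the knockout and 0.617 to 0.670 in WT, so there was less prefoldin mRNA relative to CCT mRNA in every knockout library.

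Among the phosducin-like cochaperones, Pdcl3 had the largest change. It encodes a phosducin-like protein that binds CCT and modulates its work on actin and tubulin, and it was at 67.4, 60.7, 63.0 and 59.7 FPKM in the knockout and at 36.4, 29.4, 26.5 and 26.3 FPKM in WT. Its ratio of 2.11 was near that of Cct8, and the log2 difference was 1.07 ± 0.11 (SE; limma adjusted p = 3.39e-05), or 0.79 after rescaling (limma adjusted p = 0.000163). Txndc9 was called higher as deposited at 0.27 (limma adjusted p = 0.00874) and not after rescaling, at 0.01 (limma adjusted p = 0.886). Pdcl, which assists in folding of G protein beta subunits, had 0.08 (limma adjusted p = 0.412), and Pdcl2 was listed at 0 in all libraries. The paralogs Cct6b, known mainly from testis, and Cct8l1 were below 0.2 FPKM in every library and were not tested.

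The tubulin cofactors, which act on tubulin after CCT, had the largest median of the partner lists, 0.91 as deposited and 0.64 after rescaling (all genes tested: 0.25 and 0.01). Of the 6 members 5 were called higher as deposited, against 44.9% of all genes tested, and 4 after rescaling, against 27.2%. Tbca, which holds beta-tubulin, was at 201.5, 169, 206 and 177.5 FPKM in the knockout and at 95.0, 93.1, 90.0 and 94.3 FPKM in WT. Every knockout library was far above the narrow WT range, and the log2 difference was 1.01 ± 0.08 (SE; limma adjusted p = 1.00e-05). Tbcc rose by 1.28, Tbcd by 1.08 and Tbcb by 0.81 on the log2 scale, and these calls held after rescaling (1.04, 0.84 and 0.54). Tbce was called at 0.54 as deposited only (limma adjusted p after rescaling = 0.0748), and Arl2, the small GTPase of the cofactor complex, had 0.10 (limma adjusted p = 0.427).

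The prefoldin-like complex, which shares some of the beta-type prefoldins and acts in assembly of RNA polymerase and other complexes, split in both directions. Of its 7 members 2 were called higher and 2 lower as deposited, and 2 higher and 4 lower after rescaling (all genes tested: 44.9% higher and 16.4% lower as deposited, 27.2% and 26.9% after rescaling). Uri1, its scaffold, rose by 0.65 (0.40 after rescaling) and the ATPase Ruvbl1 by 0.50 (0.25) on the log2 scale, while Ruvbl2, the usual partner of Ruvbl1, had a change of -0.56 (limma adjusted p = 0.0214) and Rpap3 of -0.29 (limma adjusted p = 0.0270), with -0.82 and -0.53 after rescaling. The calls of Ruvbl2 and Rpap3 as deposited were lost with no minimum level (limma adjusted p = 0.0796 and 0.0505) and without single libraries, Ruvbl2 without knockout replicate 3 or WT replicates 1, 3 or 4 (limma adjusted p up to 0.0598), and Rpap3 without knockout replicates 3 or 4 or WT replicates 1, 2 or 3 (up to 0.0767). Uxt and Pdrg1, the most abundant remaining members, did not pass as deposited, at 0.03 and -0.21, and Pdrg1 was called lower after rescaling at -0.49 (limma adjusted p = 0.00229).

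Of the chaperonin genes outside CCT, the mitochondrial pair and 2 of the 3 listed CCT-related BBS genes were called lower, against 16.4% of all genes as deposited and 26.9% after rescaling. Hspd1, the mitochondrial chaperonin Hsp60, was at 94.4, 153, 117 and 123 FPKM in the knockout and at 219, 257, 215 and 229.8 FPKM in WT, a log2 difference of -0.93 ± 0.14 (SE; limma adjusted p = 0.000303). Its lid Hspe1 had -0.66 (limma adjusted p = 0.00245). Both calls held after rescaling, at -1.21 and -0.94. Mkks and Bbs10, which encode CCT-related proteins that act with CCT in assembly of the BBSome, were called lower at -0.66 (limma adjusted p = 4.55e-05) and -0.39 (limma adjusted p = 0.0340), or -0.93 and -0.54 after rescaling. Bbs12 was under the minimum level and not tested. The call of Bbs10 as deposited, at about 1 FPKM, was lost without any one of 6 libraries (knockout replicates 2, 3 or 4, or WT replicates 1, 3 or 4; limma adjusted p up to 0.0846).

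Of 13 cytosolic Hsp70 and Hsp90 system genes, 6 were called higher and 1 lower as deposited, and 3 higher and 1 lower after rescaling, shares of higher calls near those of all genes (44.9% and 27.2%; lower 16.4% and 26.9%). The inducible Hsp70 gene Hspa1a was at 16.3, 21.5, 23.9 and 14.1 FPKM in the knockout and at 0.579, 0.374, 3.13 and 0.614 FPKM in WT, and its near-identical copy Hspa1b at 12.3, 13.7, 15.2 and 10.2 against 0.651, 0.484, 3.05 and 0.612 FPKM. Reads of such copies can be split between them, so their separate values are uncertain. Their log2 changes were 3.33 and 2.78 (limma adjusted p = 3.17e-05 and 4.92e-05), or 3.13 and 2.58 after rescaling. The constitutive Hspa8 and Hsp90ab1, the most abundant of the list at 825 and 481 FPKM in WT, had 0.09 each as deposited and -0.19 each after rescaling, and neither passed on those scales. Cdc37, the kinase cochaperone of Hsp90, was called lower at -0.32 (limma adjusted p = 0.00279), or -0.60 after rescaling. Of the heat shock factors, Hsf2 was called higher at 0.47 as deposited but not after rescaling (0.21, limma adjusted p = 0.0605), and Hsf1 had -0.13 as deposited, which did not pass, and was called lower after rescaling at -0.39 (limma adjusted p = 0.0127).

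**Figure D4:**
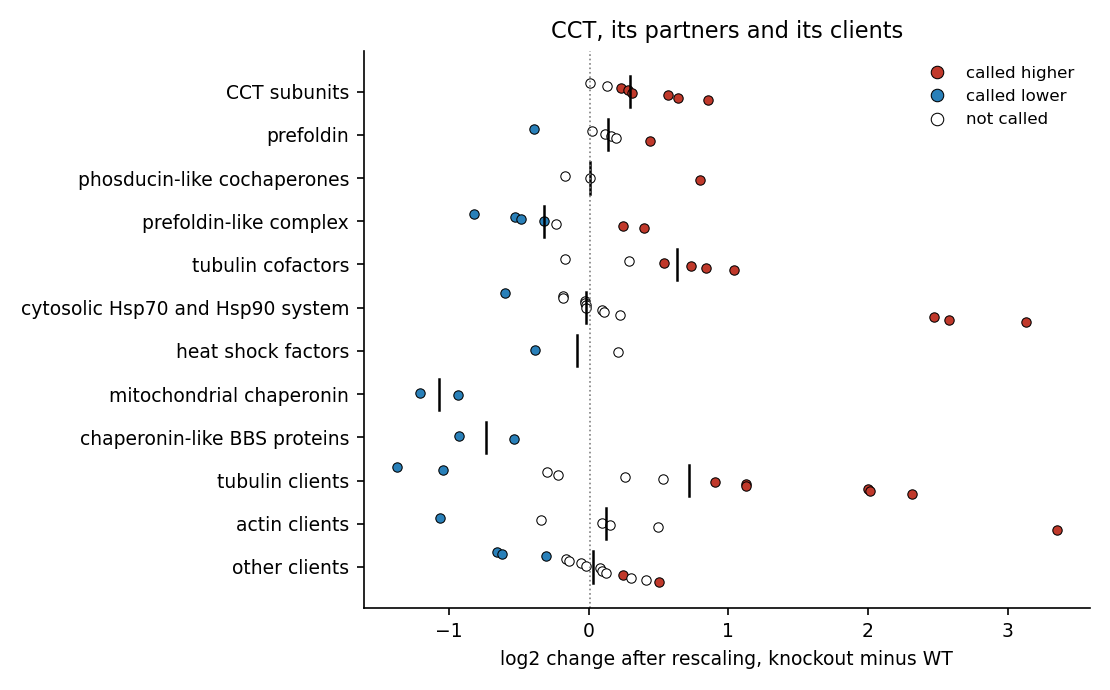
Log2 change after rescaling, knockout minus WT (horizontal axis), of each tested gene in the CCT, partner and client lists, coloured by its limma call at adjusted p below 0.05; black bars are list medians and the dotted line is the median of all genes tested. The tubulin cofactors lie to the right with 4 of 6 called higher, the mitochondrial chaperonin pair to the left, and the prefoldin subunits between.

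Among the clients, the tubulins and the actins were compared with CCT library by library. Of 12 tubulin genes tested, 6 were called higher and 0 lower as deposited, and 6 higher and 2 lower after rescaling (all genes tested: 44.9% higher and 16.4% lower as deposited, 27.2% and 26.9% after rescaling). Tubb6, a beta-tubulin of developing and remodelling muscle, was at 47.6, 187, 177 and 166 FPKM in the knockout and at 19.6, 19.7, 19.4 and 22.8 FPKM in WT. Knockout replicate 1 was well below the other knockout libraries but above WT. The log2 difference was 2.59 ± 0.38 (SE; limma adjusted p = 0.000331), 2.32 after rescaling, and 3.06 as deposited without that library. Tubb2a rose by 2.29 and Tuba1b by 1.18 on the log2 scale (2.02 and 0.90 after rescaling), and without knockout replicate 1 by 2.79 and 1.46. Tuba4a, the most abundant alpha-tubulin in WT at 489 FPKM, had -1.10 (limma adjusted p = 0.0508) as deposited, near the threshold. It was called lower after rescaling (-1.38, limma adjusted p = 0.0256), with a pseudocount of 0.1, with a minimum of 5 FPKM, with array weights, and without knockout replicate 1 (-0.62, limma adjusted p = 0.0475), knockout replicate 2 or WT replicate 2. The coding sequences of these tubulins are alike, so reads may be split between them.

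Summed over 13 genes, tubulin mRNA was at 977, 2531, 2515 and 2376 FPKM in the knockout and at 1186, 1057, 1210.0 and 1677 FPKM in WT. Knockout replicate 1 was below all WT libraries, and the other 3 were above them. The same library had a CCT sum of 917 FPKM, inside the range of the other knockout libraries (901 to 1030), so its CCT sum was high while its tubulin sum was not. Single tubulins differed in it. The 6 tubulins called higher as deposited were each above all WT libraries there too, such as Tuba1a at 151 FPKM (WT 69.9 to 97.5). The largest shortfalls in FPKM were those of Tuba4a, at 81.4 (WT 335 to 721), and Tuba8, at 38.1 (WT 100 to 185). The ratio of tubulin to CCT overlapped between the groups, at 1.06 to 2.81 in the knockout and 1.87 to 2.84 in WT.

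Actin mRNA was dominated by the cardiac isoform. Actc1, cardiac alpha-actin, was at 4363, 7358, 6327 and 5643 FPKM in the knockout and at 9536, 8360, 10400 and 12330 FPKM in WT. It was lower in every knockout library and called lower at -0.79 (limma adjusted p = 0.00334; -1.07 after rescaling), and it was not called after quantile normalization (-0.27, limma adjusted p = 0.111). Acta1, skeletal alpha-actin, was called higher at 3.63 ± 0.18 (SE; limma adjusted p = 8.99e-07; 3.35 after rescaling), from 45.7 ± 9.99 to 573 ± 107 FPKM (SD, n = 4 each). The cytoplasmic actins Actb and Actg1 had 0.43 and 0.37 (0.15 and 0.10 after rescaling) and did not pass, but passed as deposited with array weights and without knockout replicate 1 (0.63 and 0.57, limma adjusted p = 0.00403 and 0.00182). Acta2 and Actg2, the smooth muscle isoforms, had -0.07 and 0.67 and did not pass (-0.34 and 0.50 after rescaling). Summed actin mRNA per summed CCT mRNA was 5.93 to 9.95 in the knockout and 15.9 to 22.2 in WT, so each knockout library held less actin mRNA relative to CCT mRNA than any WT library.

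**Figure D5:**
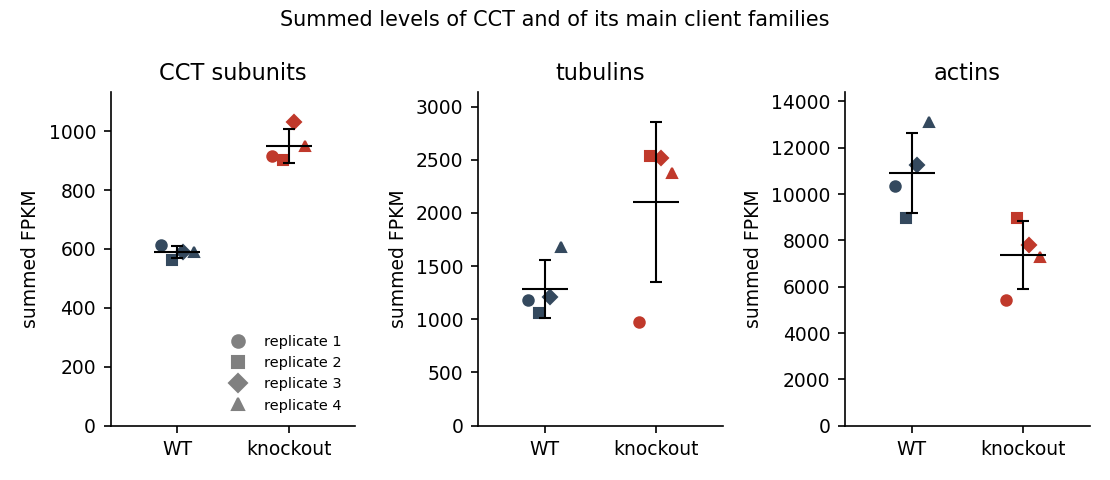
Summed FPKM as deposited of the 8 CCT subunits, 13 tubulin genes and 6 actin genes in each library (vertical axes from 0, different scales), with marker shape for the replicate and bars for mean and SD (n = 4 per group). CCT separates the groups fully, while for tubulin knockout replicate 1 (977) lies below the WT libraries and for actin the highest knockout library (8962) lies just below the lowest WT library (8981).

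The other clients of CCT, 14 of 15 tested, gave 7 calls higher and 2 lower as deposited, near the shares of all genes tested (44.9% and 16.4%). After rescaling 2 were called higher and 3 lower, both smaller shares than those of all genes tested (27.2% and 26.9%). Gnb1, a G protein beta subunit with WD40 repeats, was at 77.5, 83.3, 85.2 and 84.0 FPKM in the knockout and at 48.1, 45.0, 49.1 and 48.9 FPKM in WT. Its log2 change of 0.77 (limma adjusted p = 1.34e-05; 0.50 after rescaling) was of the size of the Tcp1 change. Vhl, the tumour suppressor whose folding needs CCT, was called higher at 0.49 (0.25 after rescaling, limma adjusted p = 0.0169). Gnb2 was called at 0.40 as deposited only, and Gnb5 and the mTOR complex subunit Mlst8 were called lower at -0.36 (limma adjusted p = 0.00522) and -0.44 (limma adjusted p = 0.00420), or -0.62 and -0.66 after rescaling.

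Several subunit genes lie next to another gene within 1000 bases. Tcp1 (mm10, chr17:12916465-12925067, plus strand) starts 119 bases from Mrpl18, a gene of the mitochondrial ribosome on the opposite strand (chr17:12911349-12916345). Mrpl18 was at 56.9, 68.6, 72.6 and 58.6 FPKM in the knockout and at 126.5, 139, 133 and 149 FPKM in WT. It was lower in every knockout library, with a log2 difference of -1.08 ± 0.10 (SE; limma adjusted p = 1.84e-05; -1.36 after rescaling), while Tcp1 was higher in every one. Of the other genes that start beside a subunit gene, Fam173b at Cct5 and Pradc1 at Cct7 were called lower, at -0.39 and -0.28 as deposited and -0.63 and -0.53 after rescaling. As deposited, the call of Pradc1 was lost without any one of 5 libraries (knockout replicates 2 or 4, or WT replicates 1, 3 or 4; limma adjusted p up to 0.0812). Psph at Cct6a did not pass (0.15, and -0.09 after rescaling). Pradc1 overlaps Cct7 by 466 bases and Psph overlaps Cct6a by 65 bases, both on opposite strands, so reads from these overlaps may also be shared. Tsacc at Cct3 had -0.37, which did not pass as deposited (limma adjusted p = 0.0940) but passed without WT replicate 3 (limma adjusted p = 0.0450), and it was called lower after rescaling, at -0.58 (limma adjusted p = 0.0198).

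At the 3′ ends, Acat3 overlaps Tcp1 by 1255 bases and Usp16 overlaps Cct8 (chr16:87483325-87495869, minus strand) by 193 bases, both on opposite strands. They were called higher, at 0.77 and 0.72 as deposited and 0.50 and 0.45 after rescaling. The library kit keeps strand, but no label says whether the authors counted by strand, so reads from the overlaps may be shared. These neighbours were at 14.8 (Usp16) and 12.3 FPKM (Acat3) in WT, below the 67.7 FPKM of Cct8 and the 80.1 FPKM of Tcp1. Cmbl, 764 bases beyond the 3′ end of Cct5, was called lower at -2.33 (-2.59 after rescaling). Processed pseudogenes of Cct3 and Tcp1 are annotated on chromosome 4, and reads that match both copies may be assigned to either. Pseudogenes were sought by the symbols of the subunits, so any annotated under other names were not seen.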

How the data were processed

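Per the submitters' processing notes, reads were aligned to mm10 with TopHat 1.0.0 and quantified and compared with Cufflinks and Cuffdiff, with no version stated for these. The authors deposited a table of FPKM per gene and library (23847 rows, of which 312 held no number in any library and 1 failed in a single library) and a table of their comparison with pooled FPKM, log2 fold change, test score (test statistic), p-value and q-value, per the file headers. Fragment counts were not recovered, so depth is unknown and no counting interval is given. Library sums ran from 481719 to 536174 FPKM. Values of 0.001, written for zero, were set to 0, and where a symbol had several rows the row of highest mean was used. limma 3.58.1 (R 4.3.3) with a trend was fitted to log2(FPKM + 1) over 11975 genes (mean over libraries of 1 FPKM or more), with all 8 libraries and no covariate, two-sided, with Benjamini-Hochberg adjustment over all genes and calls at adjusted p below 0.05. Fold changes on this scale understate those of low genes. The fit was tested on simulated data. Rescaling divided each library by its median ratio over 10667 genes above 1 FPKM in all libraries. Shares, sums and ratios were computed per library and carry no test.

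The members, the partner, client and marker lists and the tests were chosen with earlier results of these data known. Named genes were every member of lists of up to 6, and in longer lists the 2 largest called rises, the 2 largest called falls and the 2 most abundant, with the 5 genes of nearest profile. Neighbouring genes, pseudogenes (GENCODE M21) and promoter motifs (RefSeq windows) were looked up after the values were seen. The single marker genes named, Gnb4, Ahsa1, Ppp2r2a, Hsp90aa1, Hsph1, Dnaja1 and Dnajb1 were also chosen after their values were seen. Alternatives were another pseudocount (0.1), another minimum (none, or 5 FPKM), quantile normalization, other limma settings, the replicate number as a block and leaving out each library. Same-numbered libraries were not paired by any label, and the correlations of their deviations from the group means were 0.14, 0.03, -0.04 and -0.01.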

Additional observations from a re-analysis of the deposited data

Results flagged for a closer look

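By FPKM, no CCT subunit had a library past the limit used below for standing apart from its group. Cct3 in WT fell just short of it, with replicate 4 at 76.95 FPKM and the others at 73.02 to 73.7. The shares were not checked in this way. The Cct4 share in WT replicate 4 was 11.51%, with the other WT libraries at 12.34% to 12.39%. Over the named genes and the summed CCT level, 20 of 166 groups of 4 libraries had a library past the 95% limit of Dixon's test. In these its gap to the nearest library took up most of the range of the group. Chance alone gives about 1 in 20 for independent groups. Some of these genes were named after their values were seen, and all groups share the same libraries. The count therefore cannot be set against that rate. In the knockout, replicate 1 was low for Tubb6 (47.61 FPKM; the others were at 166.3 to 186.8) and for Tuba1b (190.9; others 404.3 to 425.2), and replicate 4 was low for Pfdn6 (44.61; others 53.95 to 55.29) and high for Actg2 (8.328; others 1.401 to 1.684) and the atrial genes Myl7 (726.2; others 2.498 to 61.58), Myl4 (781.3; others 19.08 to 81.72) and Sln (188.3; others 0.4287 to 18.58). Knockout replicate 1 was high for Usp16 (29.16; others 23.52 to 23.88) and replicate 2 for Cmbl (7.799; others 5.077 to 5.402). In WT, replicate 3 was high for Hspa1a (3.131 FPKM; others 0.3744 to 0.6143), Hspa1b (3.05; others 0.4845 to 0.6509), Hsph1 (19.0; others 11.46 to 12.32) and Tbcd (4.516; others 3.666 to 3.792) and low for Pdrg1 (101.6; others 111.3 to 113.1). WT replicate 2 was high for Uri1 (8.565 FPKM, others 6.142 to 6.342), Txndc9 (10.11, others 9.854 to 9.866) and the barely detected paralog Cct6b (0.09228, others 0.04423 to 0.0496). WT replicate 1 was high for Pfdn2 (50.23 FPKM, others 45.33 to 45.84) and Ruvbl1 (12.46, others 10.47 to 10.76), and WT replicate 4 for Tubb6 (22.82, others 19.35 to 19.71).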

How the results depend on the processing

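The subunits were called higher in 8 of 8 cases under every alternative run except the 2 that recentre the libraries, where 6 were called, and no subunit changed sign. Rescaling and quantile normalization gave 3256 and 3437 genes called higher, against 5372 as deposited, and 3216 and 3066 called lower, against 1964. The median change of the subunits became 0.2972 and 0.3386, and the summed CCT ratio 1.3282 after rescaling. Leaving out each library in turn gave 4901 to 5279 genes higher, 1798 to 1949 lower, 8 subunits higher, a subunit median of 0.5473 to 0.5886, a summed ratio of 1.5662 to 1.6393 and a Med1 change of -0.8831 to -0.6762. With the replicate block, 5089 genes were higher and 1867 lower, all 8 subunits were called, and Med1 stayed at -0.7418 (limma adjusted p = 0.00181); the replicate block ended the call of Bbs10 (limma adjusted p = 0.0695) and added those of Tuba4a (limma adjusted p = 0.0413) and Tsacc (limma adjusted p = 0.0464).

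Among the named genes, signs turned for those not called as deposited: Pdcl to -0.1732 and -0.1713, Uxt to -0.232 and -0.2229 Arl2 to -0.1704 and -0.1781, Psph to -0.0945 and -0.0743 and Dnaja1 to -0.0248 and -0.0192 with rescaling and quantile normalization, Hspa8 to -0.1853 and Hsp90ab1 to -0.1871 with rescaling. With each library left out in turn, Uxt ranged from -0.06 (without knockout replicate 1; -0.018 without WT replicate 3) to 0.1014, and Acta2 from -0.2625 to 0.0412 (without WT replicate 1; 0.0351 and 0.033 without knockout replicate 3 and WT replicate 3). Of the other listed genes, Gnb4, Ahsa1 and Ppp2r2a were called higher as deposited and lay at -0.06, -0.02 and -0.02 after rescaling, uncalled. Hspa8 was called higher after quantile normalization (0.32, limma adjusted p = 0.0403). Actc1 was not called with no minimum level (limma adjusted p = 0.583) or after quantile normalization. The cause of the shift between scalings was not tested, and without fragment counts no scaling could be set from depth.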

Other observations

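The inducible heat shock genes also varied within WT, and the WT library highest for them was not the highest for CCT; this was noticed after the values were seen and has no test. WT replicate 3 held the highest WT level of Hsp90aa1 (79.7 FPKM, others 46.1 to 58.6), Hsph1 (19.0 FPKM, others 11.5 to 12.3), Dnaja1 (28.1 FPKM, others 16.1 to 18.2) and Dnajb1 (14.1 FPKM, others 8.68 to 10.5), as well as of Hspa1a and Hspa1b. Its summed CCT level was 589.7 FPKM, between those of the other WT libraries (564 to 613). In the knockout, Hsp90aa1 was at 393, 347, 506 and 328 FPKM, a ratio to WT of 6.77 and a log2 change of 2.75 (limma adjusted p = 4.69e-06), or 2.48 after rescaling. Dnajb1 was called higher as deposited (0.48, limma adjusted p = 0.0135) and not after rescaling (0.22, limma adjusted p = 0.222). Hsph1 (0.37, limma adjusted p = 0.195) and Dnaja1 (0.24, limma adjusted p = 0.242) did not pass, but Hsph1 passed without knockout replicate 1 (0.59, limma adjusted p = 0.0222) and Dnaja1 without WT replicate 3 (0.41, limma adjusted p = 0.0161). Knockout replicate 3 held the highest knockout level of Hsp90aa1, Hspa1a and Hspa1b and the highest summed CCT level (1030 FPKM). Knockout replicate 2 held the highest knockout level of Hsph1 (24.6 FPKM), Dnaja1 (25.3 FPKM) and Dnajb1 (18.3 FPKM). Its summed CCT level (901 FPKM) was the lowest in the knockout.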
